A study of Mus musculus with 6 samples.

Results

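The genes of sterol and fatty acid synthesis were followed in the enamel organ of the lower incisor of mice lacking Stim1 and Stim2 and of wild-type mice. The set comprised 30 genes chosen by symbol for their place in these pathways, of 46603 genes in the count tables. Each matched 1 gene identifier: 29 by the symbols in the deposited expression tables, and Mvd through a separate symbol table. There were 18 sterol-branch enzymes, 6 fatty acid enzymes, 5 regulators and 1 sterol carrier. The enamel organ is the epithelial tissue, with its ameloblasts, that lays down and matures enamel. Stim1 and Stim2 encode the endoplasmic reticulum calcium sensors that open store-operated calcium channels. The series asked how that calcium entry bears on ameloblast function.

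The double-knockout group (DKO) comprised libraries DKO 1, DKO 3 and DKO 4 (n = 3), labelled as knocked out for Stim1 and Stim2. The wild-type group (WT) comprised WT 1, WT 2 and WT 3 (n = 3). All 6 libraries were from C57BL/6 mice and were made from 500 ng of total RNA of primary enamel organ cells, read as pairs of 150 nucleotides. The labels used here name no Cre driver, age or sex, and they do not say whether each library is 1 animal, so the p-values below measure the spread between these libraries, which may be technical. In bulk RNA of this kind, fewer cells of a type and less RNA per cell cannot be told apart.

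Cholesterol is built from acetyl-CoA. The mevalonate pathway makes isoprenoid units and joins them into farnesyl diphosphate, squalene is formed from that, and a series of ring closures, demethylations and reductions ends in cholesterol. Fatty acids start from the same acetyl-CoA, released from citrate by ATP citrate lyase, and are assembled by acetyl-CoA carboxylase and fatty acid synthase before elongation and desaturation. Transcription of both branches is driven by the SREBP factors. These are held in the endoplasmic reticulum by SCAP and INSIG proteins while sterols are plentiful, and are carried to the Golgi and cleaved when sterols fall.

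SREBP factors bind sterol regulatory elements, usually beside CCAAT boxes, so the 250 bases upstream of the start sites were read from RefSeq (GRCm38.p6). Of the 30 genes, 24 had an entry; Fdps, Fdft1, Sqle, Scd1, Scd2 and Stard4 did not. The element TCACNCCAC, searched on both strands, was found in 1 of the 24, Hmgcs1, with its first base at -137 from the start; 1.22% of 27025 genes held it in the same window. The pentamer CCAAT, also searched on both strands so that it may read ATTGG, was found in 19 of the 24 against 37.5% of all genes. It stood upstream of 14 of 15 sterol enzymes, 4 of 5 regulators and 1 of 4 fatty acid enzymes, Fasn. A match is a description of these letters, not of a bound site, and no binding was measured.

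The 6 upstream stretches shown here belong to genes on which the results below turn. Acat2, Sc5d and Fasn had groups that did not overlap, and Hsd17b7 had the largest fold change in either direction. Hmgcs1 and Idi1 differed widely among the WT libraries. Each runs 5′ to 3′ on its gene's strand up to the base before the start site, with TCACNCCAC and CCAAT matches in capitals. Acat2 is from chr17:12960726-12960975 (minus strand), Hmgcs1 from chr13:119690101-119690350 (plus), Idi1 from chr13:8885356-8885605 (plus), Hsd17b7 from chr1:169969206-169969455 (minus), Sc5d from chr9:42264301-42264550 (minus) and Fasn from chr11:120824548-120824797 (minus).
Acat2: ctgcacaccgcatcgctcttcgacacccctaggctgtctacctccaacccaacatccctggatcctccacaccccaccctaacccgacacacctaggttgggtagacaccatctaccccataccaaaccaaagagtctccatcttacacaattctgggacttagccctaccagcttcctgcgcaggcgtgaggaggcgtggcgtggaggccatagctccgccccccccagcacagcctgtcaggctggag
Hmgcs1: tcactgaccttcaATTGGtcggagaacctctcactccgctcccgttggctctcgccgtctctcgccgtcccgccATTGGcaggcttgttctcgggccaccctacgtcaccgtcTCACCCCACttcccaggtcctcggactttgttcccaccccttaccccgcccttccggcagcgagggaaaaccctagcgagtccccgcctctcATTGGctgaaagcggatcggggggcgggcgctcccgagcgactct
Idi1: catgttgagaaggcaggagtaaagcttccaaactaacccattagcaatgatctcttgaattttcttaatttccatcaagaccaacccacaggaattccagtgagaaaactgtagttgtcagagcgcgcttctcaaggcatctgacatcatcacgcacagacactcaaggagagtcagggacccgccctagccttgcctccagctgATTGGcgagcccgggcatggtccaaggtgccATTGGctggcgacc
Hsd17b7: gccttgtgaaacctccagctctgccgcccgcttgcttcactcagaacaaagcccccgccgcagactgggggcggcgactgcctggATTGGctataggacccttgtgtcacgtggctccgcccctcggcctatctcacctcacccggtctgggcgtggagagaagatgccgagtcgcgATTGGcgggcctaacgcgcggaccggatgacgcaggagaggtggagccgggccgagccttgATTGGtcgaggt
Sc5d: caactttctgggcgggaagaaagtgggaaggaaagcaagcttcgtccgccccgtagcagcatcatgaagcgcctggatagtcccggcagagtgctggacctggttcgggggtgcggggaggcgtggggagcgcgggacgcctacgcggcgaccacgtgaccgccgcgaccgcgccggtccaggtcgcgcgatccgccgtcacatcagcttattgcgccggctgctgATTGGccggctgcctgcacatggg
Fasn: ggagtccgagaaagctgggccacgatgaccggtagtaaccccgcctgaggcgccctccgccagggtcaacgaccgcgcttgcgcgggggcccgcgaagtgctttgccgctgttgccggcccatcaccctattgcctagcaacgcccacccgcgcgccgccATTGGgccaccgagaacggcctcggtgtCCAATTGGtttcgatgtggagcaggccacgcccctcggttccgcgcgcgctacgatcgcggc

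Hmgcs1, Hsd17b7 and Fasn each held 3 CCAAT matches, 2 of those in Fasn overlapping, while Idi1 held 2 and Sc5d 1. The Acat2 stretch held neither motif. The start sites used are those of RefSeq. GENCODE vM21 starts Idi1 at 8885501 and ends Hsd17b7 at 169969241 and Acat2 at 12960747, so their stretches lie partly inside the gene. In Idi1 that part holds both CCAAT matches, and in Hsd17b7 it holds the last.

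The libraries held 18609759 to 22829411 counted fragments. Stim1 was at 107, 143 and 125 CPM (counts per 1e6 fragments, scaled by TMM) in DKO 1, 3 and 4 and at 413, 492 and 362 in WT 1, 2 and 3. Stim2 was at 105, 136 and 125 in DKO and at 229, 310 and 245 in WT, so both followed their labels without being lost. Stim1 fell by 1.75 on the log2 scale (edgeR adjusted p = 0.00553) and Stim2 fell by 1.10 (edgeR adjusted p = 0.018). The Stim2 call was lost in 6 of 18 alternatives, where its adjusted p was 0.0557 to 0.126. Summed CPM of 12 enamel epithelium markers was 144001 to 211819 in DKO and 106023 to 171101 in WT, led by the enamel matrix genes Ambn and Amelx. Of these 12, edgeR called 1 lower in DKO and 0 higher at an adjusted p below 0.05. The 10 adipocyte markers summed to 9.94 to 14.0 CPM over the 6 libraries; 8 of them, among these Adipoq and Plin1, stayed below 1 CPM in every library, and Lep was at 0 in all.

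No gene of sterol or fatty acid synthesis passed the test between DKO and WT. With edgeR's quasi-likelihood test over 14721 genes, 0 of the 30 were called at an adjusted p below 0.05, against 1.04% of all genes (153; 0.734% higher and 0.306% lower in DKO). DESeq2, which called 5.52% of all genes, called 0 of the 30. The limma fits on FPKM called 0 of the 29 they could test, without Mvd. They called 77 of all 13359 genes tested, or 11 of 25995 with no filter. At an unadjusted p below 0.05 there were 5 of the 30, Acat2, Hsd17b7, Sc5d, Dhcr7 and Fasn, against 18.0% of all genes. The 3 DKO libraries lay wholly above the 3 WT libraries for Acat2 and wholly below them for Sc5d and Fasn; the groups did not overlap in 23.3% of all genes (11.4% higher and 11.8% lower in DKO). All 3 shares are at or under those of the whole table. The 95% interval of the fold change excluded both a doubling and a halving for 29 of the 30 genes, with Hsd17b7 the exception, against 78.0% of all genes. It excluded a 1.5-fold change either way for 24 of the 30, against 58.0% of all genes.

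**Figure D1:**
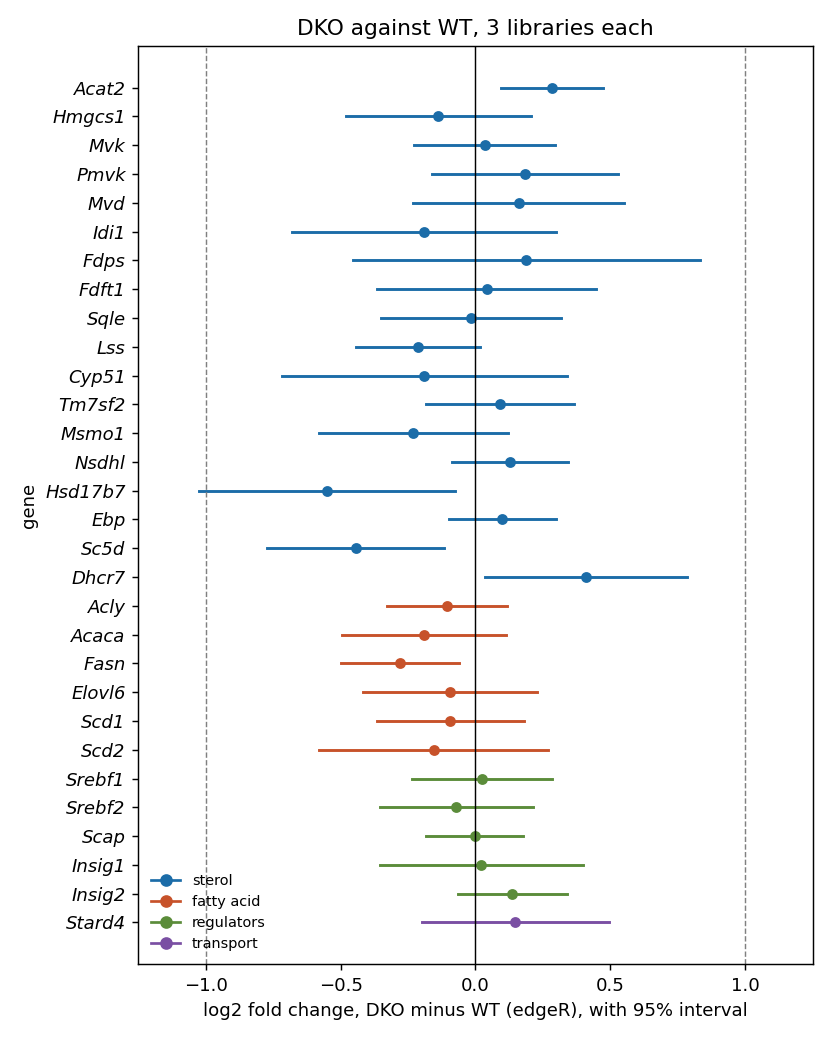
Log2 fold change of DKO against WT for each of the 30 genes (x axis, edgeR) with its 95% interval, coloured by role; the dashed lines mark a halving and a doubling. Only the interval of Hsd17b7 crosses a dashed line, and the 6 fatty acid enzymes all lie below 0 while the sterol enzymes lie on both sides.

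In levels per transcript length, the deposited FPKM values put Scd2 first. Its mean over the 6 libraries was 162 FPKM, ahead of Fdps at 78.7, Sqle at 60.0, Srebf1 at 56.2, Hmgcs1 at 54.6 and Srebf2 at 51.8. The lowest was Elovl6, a fatty acid elongase, at 4.19, after Stard4 at 5.23 and Dhcr7 at 7.88. The library ranges of most neighbours in this order overlap, including those from Sqle to Srebf2. The range of Scd2, 132 to 212 FPKM, does not meet that of Fdps, 58.7 to 91.6. Mvd has no FPKM value here.

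**Figure D2:**
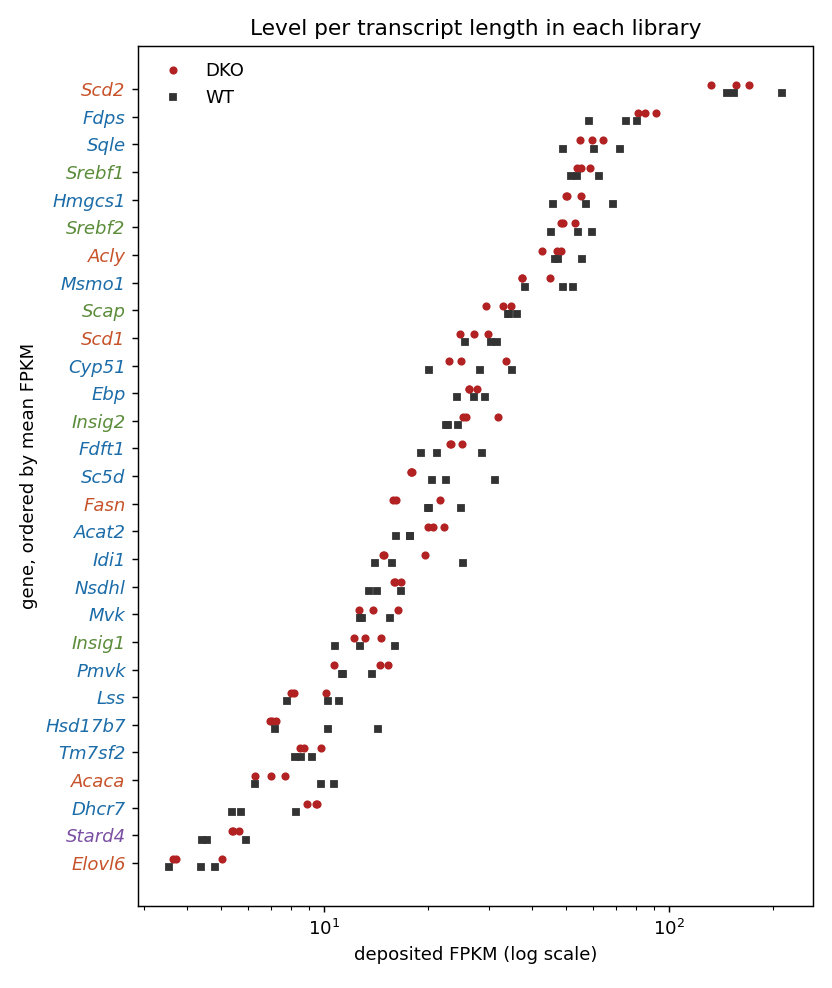
Deposited FPKM (log x axis) of 29 genes in each library, ordered by mean, with DKO libraries as circles and WT libraries as squares and gene names coloured by role. The marks run from Elovl6 at about 4.19 to Scd2 at about 162 FPKM on average, and for most genes the 2 genotypes interleave.

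None of the 7 enzymes from acetyl-CoA to farnesyl diphosphate passed the test (median log2 fold change 0.16, 5 above 0 and 2 below). Acat2, the cytosolic acetyl-CoA acetyltransferase that feeds the pathway with acetoacetyl-CoA (chr17:12942890-12960747, minus strand, GRCm38), stood nearest to a call. It was at 37.5, 40.2 and 41.5 CPM in DKO and at 33.4, 34.3 and 30.1 CPM in WT. Every DKO library was above every WT library, by 1.22-fold on average. The log2 fold change was 0.28 ± 0.08 (SE, n = 3 and 3), with an edgeR adjusted p of 0.146 that ranged from 0.114 to 0.349 over the alternatives. An exact two-sided permutation test gave p = 0.1, the smallest that 3 against 3 libraries allow.

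Hmgcs1, the synthase that forms HMG-CoA, was at 165, 177 and 187 CPM in DKO and at 192, 236 and 155 CPM in WT. The WT libraries lay on both sides of all 3 DKO libraries, and the log2 fold change of -0.14 ± 0.15 (SE) had an edgeR adjusted p of 0.675. Idi1, the isopentenyl diphosphate isomerase, showed the same order among the WT libraries, at 46.7, 71.9 and 40.7 CPM against 41.7, 43.5 and 54.2 CPM in DKO. Without WT 2 the log2 fold change of Idi1 moved from -0.19 to 0.09 and that of Hmgcs1 to 0.03, both with no call. The kinases Mvk and Pmvk, which phosphorylate mevalonate and phosphomevalonate, had overlapping groups, with log2 fold changes of 0.03 and 0.18. Mvd, the decarboxylase that follows them, was at 19.1 ± 1.22 CPM in DKO and 17.1 ± 4.15 CPM in WT (SD, n = 3 each; log2 fold change 0.16).

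Fdps, the farnesyl diphosphate synthase, needs a separate reading, because its counts and its FPKM values differ widely in size. It had between 26 and 40 counts per library, or 1.96, 1.32 and 1.93 CPM in DKO and 1.70, 1.65 and 1.22 CPM in WT. Its FPKM was 85.3, 81.0 and 91.6 in DKO and 75.1, 80.7 and 58.7 in WT, second among the 29 genes. The FPKM was 203-fold its count rate per exonic kilobase, where the median of 12786 protein-coding genes was 1.63 and the 5th to 95th percentiles were 0.96 to 4.92. In GENCODE vM21, 26.7% of the exonic bases of Fdps (chr3:89093588-89101959, minus strand) are shared on the same strand with another gene, ENSMUSG00000105204, which had 0 counts in all 6 libraries. The part of that overlap in the counts of Fdps was not tested. By counts the log2 fold change was 0.19 ± 0.28 (SE), with a 95% interval of -0.45 to 0.83 and an edgeR adjusted p of 0.77. The counts of Fdps are therefore too few for its fold change to be read closely.

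The 11 enzymes from squalene to cholesterol had a median log2 fold change of -0.02, 5 above 0 and 6 below, and none passed the test. The widest differences were in late steps, and they had both signs. Hsd17b7, the 3-keto-steroid reductase of C4 demethylation (chr1:169949535-169969241, minus strand), was at 23.3, 23.1 and 23.9 CPM in DKO and at 35.4, 44.2 and 23.4 CPM in WT. WT 3 lay among the DKO libraries while WT 1 and WT 2 stood well above them. DKO stood at 68.2% of WT, a log2 fold change of -0.55 ± 0.20 (SE) with an edgeR adjusted p of 0.218. Without WT 3 the log2 fold change was -0.76 (adjusted p = 0.0656 by edgeR) and without WT 2 it was -0.33 (0.369). With the replicate number as a block it was -0.32 (0.415). WT 2 and DKO 4 have replicate numbers that the other group lacks, so in that fit they added nothing to the genotype effect. The size of the fold change thus rests on which WT libraries are counted.

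Sc5d, the sterol C5 desaturase (chr9:42251595-42264256, minus strand), was at 36.5, 38.1 and 37.2 CPM in DKO and at 62.8, 47.0 and 42.1 CPM in WT. All DKO libraries were below all WT libraries, and WT 1 was the highest. The log2 fold change was -0.44 ± 0.14 (SE), with an edgeR adjusted p of 0.173 (0.0982 to 0.421 over the alternatives) and an exact permutation p of 0.1. Without WT 1 the log2 fold change was -0.25 (edgeR adjusted p = 0.231). Dhcr7, the 7-dehydrocholesterol reductase that completes cholesterol (chr7:143823145-143848410, plus strand), leaned the other way. It was at 16.9, 18.9 and 19.7 CPM in DKO and at 13.5, 17.1 and 11.2 CPM in WT, where WT 2 overlapped the DKO range. Its log2 fold change was 0.41 ± 0.16 (SE), with an edgeR adjusted p of 0.238 (0.0882 to 0.489 over the alternatives). Without WT 2 it was 0.58 and without WT 3 it was 0.28. In consecutive steps of this pathway, then, Sc5d was at 73.5% and Dhcr7 at 133% of the WT mean, neither past the test.

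The other 8 enzymes of this stretch lay closer to equal levels. Fdft1, the squalene synthase, was at 64.0 ± 3.23 CPM in DKO and 62.2 ± 17.3 CPM in WT (SD, n = 3 each). In GENCODE vM21, 18.3% of its exonic bases lie opposite exons of Ctsb, which had 156894 counts in all; the library kit does not mark strand, so reads of the pair there cannot be told apart. Sqle, the squalene epoxidase that adds the first oxygen of the sterol path, was at 156, 177 and 183 CPM in DKO and at 172, 209 and 141 CPM in WT (log2 fold change -0.02). Lss, the lanosterol synthase, was at 33.0 ± 1.26 CPM in DKO and 38.3 ± 4.51 CPM in WT, with a log2 fold change of -0.21 and an edgeR adjusted p of 0.307.

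Cyp51, the lanosterol 14-demethylase, ranged from 77.9 to 111 CPM in DKO and from 72.4 to 138 CPM in WT. Its log2 fold change of -0.19 turned to 0.06 with the replicate number as a block and to 0.04 without WT 2. The block fit also took nothing from WT 2 for the genotype effect. Msmo1, the C4 methyl oxidase, had a log2 fold change of -0.23 (edgeR adjusted p = 0.472). Nsdhl, the decarboxylating dehydrogenase that follows it, was at 35.6 ± 1.12 CPM in DKO and 32.6 ± 3.45 CPM in WT. Ebp, the sterol isomerase, had 43.7 ± 1.79 and 40.7 ± 3.62 CPM. Tm7sf2, a C14 reductase that shares 12.1% of its exonic bases with Vps51, had 11.4 ± 1.09 and 10.7 ± 0.385 CPM (SD, n = 3 each).

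All 6 fatty acid enzymes had log2 fold changes below 0, from -0.28 to -0.09 with a median of -0.13, and none passed the test. The shared sign did not hold in every alternative: with the replicate number as a block Elovl6 (0.07), Scd1 (0.02) and Scd2 (0.14) were above 0, without WT 2 Elovl6 (0.01) and Scd2 (0.05) were, and with a term for Xist-high libraries Elovl6 (0.01) was. The block fit, like the fit without WT 2, took nothing from WT 2 for the genotype effect. Over all genes 48.7% had a log2 fold change above 0 and the median was -0.01. Fasn, the fatty acid synthase (chr11:120805846-120824547, minus strand), was at 99.9, 113 and 110 CPM in DKO and at 124, 147 and 122 CPM in WT. The groups did not overlap, and DKO stood at 82.4% of WT. The log2 fold change was -0.28 ± 0.09 (SE), with an edgeR adjusted p of 0.192 (0.107 to 0.585 over the alternatives) and an exact permutation p of 0.1. By FPKM the separation was not there: DKO 4 had 21.7, above WT 1 at 20.1.

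Acly, the citrate lyase that supplies both branches, was at 200.3, 193 and 200.5 CPM in DKO and at 240.5, 204 and 194 CPM in WT (log2 fold change -0.10). Acaca, the cytosolic acetyl-CoA carboxylase that makes malonyl-CoA, was at 57.8 ± 5.88 CPM in DKO and 66.0 ± 10.7 CPM in WT (SD, n = 3 each; log2 fold change -0.19). Elovl6, which lengthens palmitate, had 23.4 ± 3.21 and 25.0 ± 3.55 CPM. The groups overlapped for each of these 3 genes.

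The stearoyl-CoA desaturases insert the double bond of oleate and palmitoleate, and mice carry 4 neighbouring copies on chromosome 19. Scd2 accounted for 81.6% to 86.4% of the summed FPKM of these 4 genes in each library, and Scd1 for 12.4% to 16.8%. Scd2 was at 844, 977 and 733 CPM in DKO and at 845, 1195 and 804 CPM in WT. WT 2 alone lay above the DKO range. The log2 fold change of Scd2 was -0.16 ± 0.18 (SE). Scd1 was at 136, 158 and 125 CPM in DKO and at 161, 157 and 129 CPM in WT (log2 fold change -0.09). The 4 copies are alike in sequence, so a share of their reads could be split between them by the authors' counting, which makes the value of each copy uncertain.

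None of the 5 regulators passed the test, and the 95% interval of each excluded a 1.5-fold change. Srebf1, which encodes the SREBP form tied mainly to fatty acid genes, was at 216 ± 13.8 CPM in DKO and 212 ± 28.8 CPM in WT (SD, n = 3 each). Srebf2, which encodes the form tied mainly to sterol genes, was at 272 ± 21.1 and 285 ± 41.4 CPM. Scap, the escort that carries SREBP to the Golgi, was at 99.9, 111 and 113 CPM in DKO and at 116, 105 and 104 CPM in WT, with a log2 fold change of 0.00 ± 0.08 (SE) and a 95% interval of -0.18 to 0.18. Insig1, the retention factor that is itself an SREBP target, was at 33.9, 33.8 and 38.8 CPM in DKO and at 32.8, 44.2 and 28.0 CPM in WT (log2 fold change 0.02). Insig2, the retention factor that does not depend on SREBP in the same way, had a log2 fold change of 0.14 and an edgeR adjusted p of 0.459. Stard4, a soluble carrier that moves cholesterol between membranes, was at 26.9 ± 1.15 CPM in DKO and 24.3 ± 5.31 CPM in WT. Transcript levels do not report the cleavage of SREBP, which was not measured.

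Set side by side, the branches had median log2 fold changes of 0.04 (18 sterol enzymes), -0.13 (6 fatty acid enzymes) and 0.02 (5 regulators), and no test was made of the difference between them. The sterol median ran from -0.04 to 0.09 over the alternatives and the fatty acid median from -0.23 to -0.01. Summed FPKM of the 17 sterol enzymes with a value was 438, 438 and 470 in DKO and 467, 505 and 376 in WT. The DKO sums all lay inside the WT range. Fdps, whose FPKM was 203-fold its count rate, gave 86.0 of the mean sum of 448 in DKO and 71.5 of 450 in WT. The fatty acid sum was 259, 270.3 and 237 in DKO and 276, 329 and 249 in WT, a mean of 255 ± 17.0 against 285 ± 40.9 (SD, n = 3 each). Scd2 alone gave 153 of that mean in DKO and 171 in WT. The regulators summed to 179.9 ± 9.98 and 181 ± 14.5. In each case the difference of the means was smaller than the SD of the WT libraries. That SD describes single libraries and is larger than the standard error of their mean, so this is no test of the difference.

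These genes spread more among the WT libraries than among the DKO libraries. The highest WT library exceeded the lowest by a median of 1.49-fold over the sterol enzymes and 1.29-fold over the fatty acid enzymes, against 1.23-fold over all genes. Among the DKO libraries the medians were 1.15-fold and 1.24-fold, against 1.20-fold. WT 2 was the highest of the 6 libraries for 17 of the 30 genes, against 15.5% of all genes. It was the highest of the 3 WT libraries for 20 of the 30, against 31.2%. WT 3 was the lowest of the 6 libraries for 16 of the 30, against 16.2% of all genes, and the lowest of the 3 WT libraries for 26 of the 30, against 32.0% of all genes. The SD was smaller in DKO than in WT for 24 of the 30, against 57.9% of all genes. The ratio of highest to lowest WT library exceeded the fold change between genotypes for 17 of 18 sterol enzymes and 5 of 6 fatty acid enzymes. It did so for 11190 of all 14721 genes. These are counts over genes that share the same 6 libraries, with no test. A range over single libraries tends to exceed a difference of group means, so the last count does not set the spread within WT against that between genotypes.

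The WT medians of both branches and of their regulators ran in the order WT 2, WT 1, WT 3. Taken against each gene's mean over the 6 libraries, the median log2 level of the sterol enzymes was 0.08, 0.20 and -0.25 in WT 1, WT 2 and WT 3, and -0.01, -0.03 and 0.09 in DKO 1, DKO 3 and DKO 4. Within the sterol branch the 11 enzymes from squalene on had this order (0.10, 0.27 and -0.24 in WT 1, WT 2 and WT 3). The median of the 7 mevalonate enzymes was nearly level in WT 1 and WT 2, at 0.06 and 0.04, and -0.26 in WT 3. It was highest in DKO 1 and DKO 4, at 0.15 each. By gene, WT 2 was the highest WT library for 4 of 7 mevalonate enzymes and 7 of 11 from squalene on (31.2% of all genes). WT 3 was the lowest WT library for 6 of 7 and 9 of 11 (32.0% of all genes). For the fatty acid enzymes the median was 0.11, 0.24 and -0.15 in WT and -0.08, 0.00 and -0.18 in DKO. For the regulators it was -0.06, 0.20 and -0.18 in WT, and -0.06, 0.10 and 0.07 in DKO. Within the sterol enzymes the spread was uneven. Cyp51 varied 1.91-fold among the WT libraries, Hsd17b7 1.88-fold, Idi1 1.77-fold and Fdft1 1.67-fold, whereas Tm7sf2 varied 1.07-fold, Mvk 1.18-fold and Ebp 1.19-fold. Xist was above 100 CPM in WT 1, WT 2 and DKO 1, but not in WT 3, DKO 3 or DKO 4. WT 3 was thus the only WT library not high in Xist. The part of this in the spread was not tested.

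**Figure D3:**
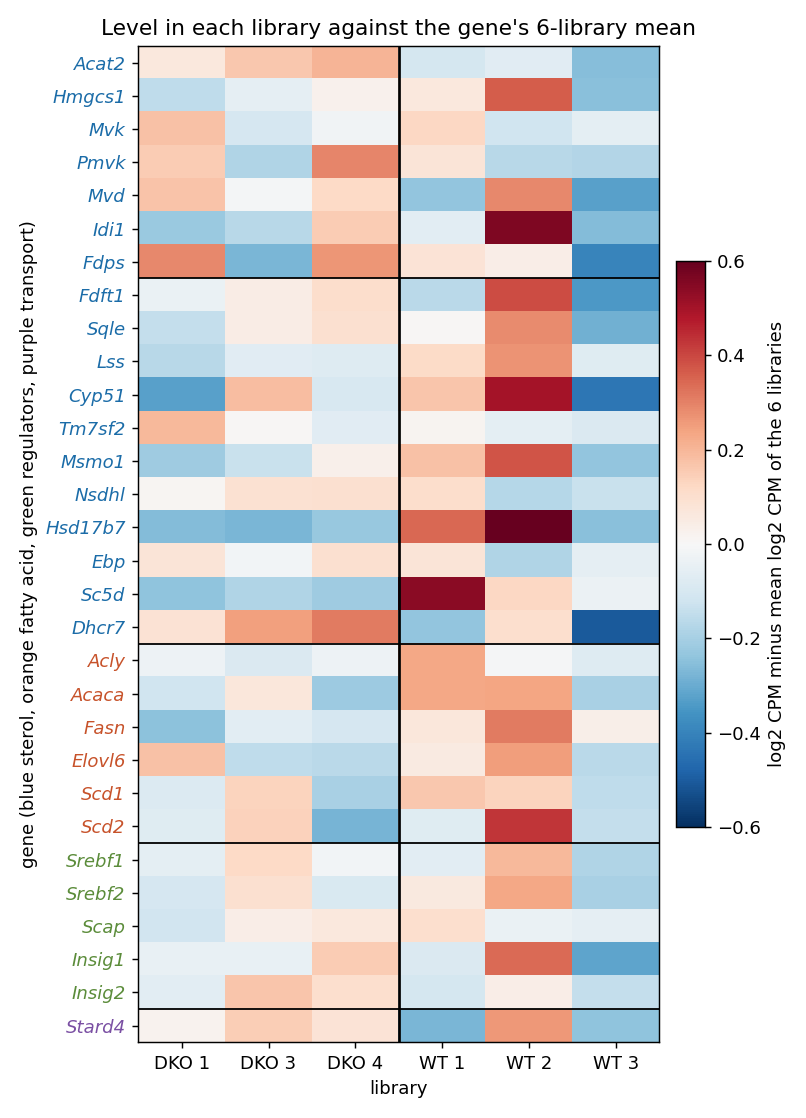
Level of each of the 30 genes (rows, ordered by role) in each library (columns) as log2 CPM minus the gene's mean over the 6 libraries; red is above and blue below that mean. The WT 2 column is mostly red, with WT 2 highest of the 6 for 17 genes, and the WT 3 column is mostly blue.

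**Figure D4:**
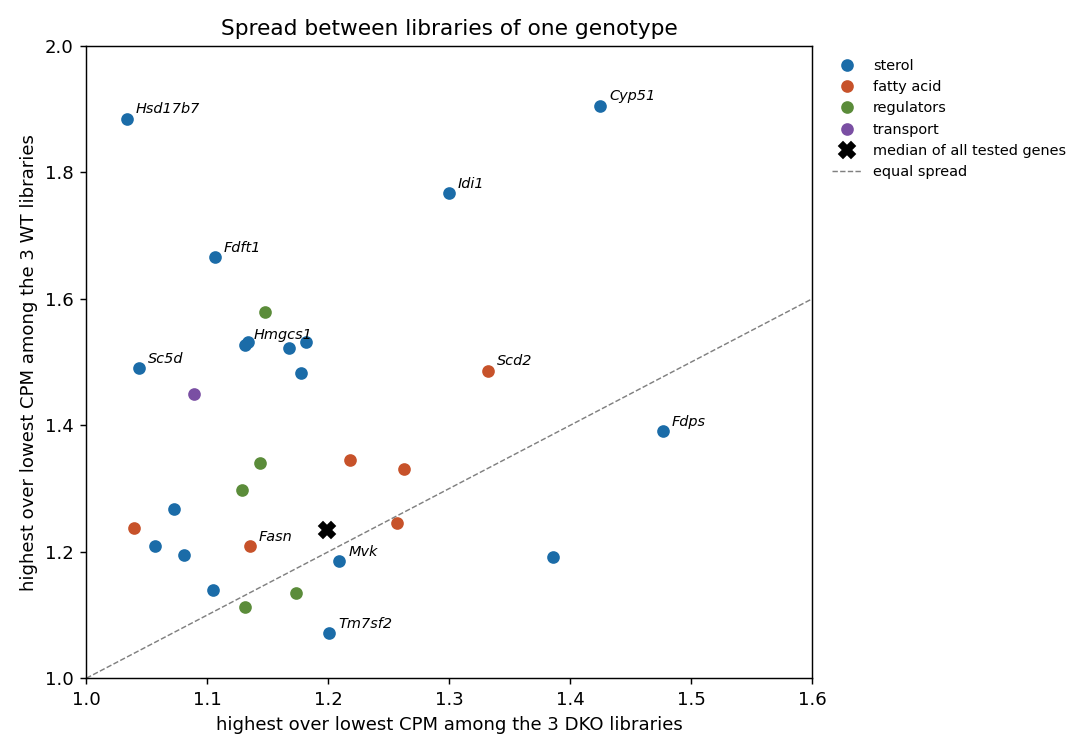
Ratio of the highest to the lowest CPM among the 3 DKO libraries (x axis) and among the 3 WT libraries (y axis) for each gene, with the dashed line at equal spread and a cross at the median of all tested genes. Most sterol enzymes lie above the line, led by Cyp51 at 1.91-fold and Hsd17b7 at 1.88-fold among WT.

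Some marker sums also set WT 2 or WT 3 apart, and others did not. The 10 mesenchyme markers, led by Col1a1 and Col1a2, summed to 6703 CPM in WT 2 and to 10052 to 12954 CPM in the other 5 libraries. The 10 leukocyte markers, led by Cd74 and Lyz2, summed to 210.1 CPM in WT 2, 279 and 300.3 CPM in the other WT libraries and 304 to 459 CPM in DKO. The 10 endothelial markers, led by Kdr and Cdh5, summed to 238 CPM in WT 2, 300.2 and 313 CPM in the other WT libraries and 338 to 385 CPM in DKO. Both sums were thus higher in every DKO library than in any WT library, although 0 of the 20 markers passed the test. The 10 muscle markers, led by Myh4 and Acta1, were highest in WT 3 at 356 CPM, against 58.6 to 176 CPM in the others. The enamel epithelium sum was 171101 CPM in WT 2, 137151 CPM in WT 3 and 106023 CPM in WT 1, with DKO 3 highest at 211819 CPM, and the Schwann cell sum was lowest in WT 1 at 29.8 CPM. Neither ran in the order of the lipid genes. Among the WT libraries the mesenchyme, leukocyte and endothelial sums rose in the order WT 2, WT 1, WT 3, the reverse of the lipid medians. The mesenchyme sum was 6703, 10052 and 11069 CPM in that order. The muscle sum did not follow it, at 76.7 CPM in WT 1, 112 CPM in WT 2 and 356 CPM in WT 3. None of the mesenchyme, leukocyte, endothelial and muscle markers was at 0 in every library. The part of these cell types in the levels or the spread of the lipid genes was not tested. Without WT 2 edgeR still called 0 of the 30 genes, against 2.23% of all genes. Without WT 3 it called 0 of the 30 as well, but only 30 of all 14869 genes tested.

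Beyond the 30, another 69 genes of these pathways were listed by role, and 66 passed the filter on low counts. None rose, 1 fell and 65 did not pass. Of the 16 tested in sterol synthesis and its control none passed (median log2 fold change 0.02); Mbtps1, the site-1 protease that cleaves SREBP, was at 215 ± 9.56 CPM in DKO and 211 ± 2.14 CPM in WT (SD, n = 3 each). Of the 15 tested in sterol uptake and efflux none passed (median -0.04). Lrp1, a lipoprotein receptor, had a log2 fold change of -0.10 and Npc2, which hands cholesterol out of the lysosome, 0.14. Of the 10 triglyceride and lipid droplet genes none passed (median 0.16), with Lpin2, a phosphatidate phosphatase, at -0.18 and Plin3, a droplet coat protein, at 0.35 (edgeR adjusted p = 0.108).

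The gene that fell was Scd3, among 25 tested genes of fatty acid synthesis with a median log2 fold change of 0.02. It was at 5.32, 4.89 and 4.12 CPM in DKO and at 9.42, 9.45 and 8.80 CPM in WT. The groups did not overlap, and DKO stood at 51.8% of WT, a log2 fold change of -0.95 ± 0.15 (SE), with an edgeR adjusted p of 0.0351. The call was lost with the replicate number as a block (adjusted p = 0.120), with a term for libraries high in Xist (0.0813), with limma on FPKM (0.0781 to 0.206) and when any 1 library was left out (0.0523 to 0.126). The log2 fold change was -0.84 with the block, -0.90 with the Xist term and -1.03 to -0.85 when 1 library was left out. Scd3 made up 0.729% to 1.45% of the FPKM of the 4 desaturase copies, so its value also carries the doubt on shared reads. The sum of 10 oral keratinocyte markers was also lower in DKO, at 78.2 to 133 CPM against 274 to 476 CPM in WT. Most of this sum was Krt6a, at a mean of 206 CPM over the 6 libraries, against 10.3 CPM for the next marker, Krt6b. Of the 8 markers tested, 1 passed the test, lower in DKO. Krt1 alone stayed below 1 CPM in every library. The part of these markers in the level of Scd3 was not tested.

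In the same list Slc25a1, the mitochondrial citrate carrier that supplies cytosolic acetyl-CoA, was at 253, 257 and 332 CPM in DKO and at 186, 198 and 187 CPM in WT. Every DKO library was above every WT library, with a log2 fold change of 0.56 ± 0.12 (SE). Its edgeR adjusted p was 0.0759, or 0.0221 with no filter on low counts, and its DESeq2 adjusted p was 0.000744. It passed in no other alternative. Over all of them the adjusted p ranged from 0.000744 to 0.214 and the log2 fold change from 0.42 to 0.64. Me1, the malic enzyme that supplies NADPH, was at 202 ± 10.2 CPM in DKO and 224 ± 37.3 CPM in WT (SD, n = 3 each), with overlapping groups. Of the genes around the fatty acid branch, then, the carrier upstream of Acly was 1.47-fold higher in the DKO mean. Acly was at 93.0% and Fasn at 82.4% of the WT mean. None of the 3 passed edgeR's test with its filter on low counts in place.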

How the data were processed

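RNA from mouse enamel organ cells was sequenced in 3 DKO and 3 WT libraries. The submitters' processing notes name Trimmomatic 0.32, Cufflinks 2.2, HTSeq and the build GRCm38, and no aligner. The deposited counts are whole fragments per gene and the deposited FPKM values are scaled to transcript length and library size, computed by the authors per library. The counts named no unassigned rows (0), and totals are given above. Here counts were tested with edgeR 4.0.16 (quasi-likelihood, TMM, filterByExpr, R 4.3.3) over all 6 libraries with Benjamini-Hochberg adjustment and a call at an adjusted p below 0.05. Intervals are 95% and use the standard error implied by the F statistic. Single genes also had an exact permutation test over libraries. Alternatives used DESeq2 1.42.0 and limma 3.58.1, the latter on log2(FPKM + 1) or log2(FPKM + 0.1), so its fold changes understate those of low genes. The script for edgeR was tested on simulated data.

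All 30 genes passed the filter. Genes named were the 30, Stim1 and Stim2 as a check of the labels, every called gene and otherwise the 2 most abundant genes of each further pathway list, and the 2 most abundant markers of a list; Slc25a1, Me1, Lpin2 and Plin3 are named under that rule, and 1 gene it names is not reported here. The 30 genes and the lists were chosen with earlier results of these data known. Replicate libraries differed by more than sampling noise (chi-square per degree of freedom of 14.3 or more). Gene positions and exon overlaps are from GENCODE vM21, and promoters from RefSeq.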

Additional observations from a re-analysis of the deposited data

How the results depend on the processing

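No gene of the 30 that an alternative tested was called in any of the 18; the 3 limma fits tested 29 (not Mvd) and so did the filter at a mean of 50 counts (not Fdps). The medians of the sterol and fatty acid branches moved by less than their SD between libraries, 0.171 and 0.155. Those SDs are larger than the medians in size (0.04 and -0.13), so this cannot show that either median is stable. The number of all tested genes called, 153 by edgeR, was 554 with no filter on low counts, 826 with DESeq2, 328 with the replicate number as a block, 71 with a term for Xist-high libraries, 77 with limma on log2(FPKM + 1) or log2(FPKM + 0.1), and 11 with limma and no filter; it ran from 21 to 335 when 1 library was left out, the extremes being without DKO 4 and without WT 2. The cause was not tested. The number of the 66 further pathway genes called, 1 by edgeR, was 3 with no filter on low counts (Apoe, Slc25a1 and Scd3), 5 with DESeq2 (those 3 with Dgat2 and Plin3), and 0 with the Xist term or with limma at either pseudocount or with no filter; it ran from 0 to 1 when 1 library was left out. With the replicate block it was 1, but the gene was Lipa, and without WT 2 it was Npc1.

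The groups share only the replicate numbers 1 and 3. The deviations of same-numbered libraries correlated at 0.19 and -0.02, so the numbers were not taken as pairs. With the replicate block 0 of the 30 genes were called and the fatty acid median was -0.01. WT 2 and DKO 4 stand alone in their blocks, so that fit drew the genotype effect only from the libraries numbered 1 and 3. When a group keeps 2 libraries, the spread is pooled over the rest. Fdps, at 26 to 40 counts per library, is the member that depth limits most.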
